A study of Rattus norvegicus with 6 samples.

Results

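Keratins, the intermediate filament proteins that give epithelial cells their mechanical strength, were examined in a rat keratinocyte line with and without exposure to iron ions. The genes were 10 named keratins, Krt5, Krt14, Krt15, Krt17, Krt6a, Krt7, Krt8, Krt18, Krt19 and Krt10, found by symbol in the annotation of the array, a list drawn up with changes of some of them already known. Of these 10, 9 had a probe set with that 1 symbol and Krt6a had none, out of 14217 genes with such a probe set on the array. A probe set is a group of short probes that reads 1 transcript. The probe set of a gene was to be chosen by the highest mean intensity over all 6 arrays, but each of the 9 keratins had exactly 1, so that no second probe set could serve as a check.

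The cells were an immortalized line of keratinocytes from back skin of newborn male Sprague-Dawley rats. Unirradiated samples (n = 3) had no treatment, and irradiated samples (n = 3) received 3 Gy of 56Fe ions at 1.01 GeV per nucleon. Each was hybridised to 1 Affymetrix rat 230 2.0 array. All data come from 1 line, the labels do not say that replicates were separate cultures, and they do not give the time from irradiation to RNA extraction, so the spread behind the p-values is that of these samples and may be technical. Whether both groups were hybridised together is not given, and a processing difference between groups cannot be told apart from irradiation.

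Keratins work in pairs: each filament is built from dimers of 1 acidic type I keratin and 1 basic type II keratin. In the epidermis, basal cells make Krt5 with Krt14 and Krt15, and cells that leave the basal layer switch to Krt1 and Krt10. Krt6 and Krt17 are known from hair follicles and from skin that is wounded or stressed, and Krt7, Krt8, Krt18 and Krt19 are best known from simple, single-layered epithelia. In rat, keratin genes lie in a pair of clusters. By the RefSeq table of assembly GRCr8, Krt5, Krt6a, Krt7, Krt8 and Krt18 lie on chromosome 7, and Krt10, Krt14, Krt15, Krt17 and Krt19 on chromosome 10. Among protein-coding genes, Krt8 and Krt18 are next to each other, as are Krt15 and Krt19 and as are Krt6a and Krt5. Krt18 is the type I gene that lies beside the type II cluster.

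RefSeq sequences from 250 bases before to 50 bases after the gene start were at hand for 4 of the 10 keratins, Krt5, Krt8, Krt18 and Krt10. Krt5 is shown because it is the type II keratin of the basal pair, and Krt8 and Krt18 because these neighbouring partner genes gave very different signals, as described further on. Intensities of different probe sets are not on 1 scale, so these signals do not show a difference in mRNA. All are in build GRCr8, written 5′ to 3′ on the strand of the gene: chr7:134730520-134730819 on the minus strand for Krt5, chr7:135010290-135010589 on the minus strand for Krt8 and chr7:135035918-135036217 on the plus strand for Krt18. Capitals mark matches on either strand to the TATA box TATAAA, the GC box GGGCGG, the CCAAT box, the AP-1 motif TGACTCA and the AP-2 motif GCCNNNGGC.
Krt5: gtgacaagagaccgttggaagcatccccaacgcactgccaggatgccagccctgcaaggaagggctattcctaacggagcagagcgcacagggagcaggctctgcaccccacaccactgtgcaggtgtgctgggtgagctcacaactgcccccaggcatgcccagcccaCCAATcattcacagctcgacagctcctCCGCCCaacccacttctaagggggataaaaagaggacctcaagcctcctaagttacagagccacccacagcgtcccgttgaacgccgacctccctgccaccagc
Krt8: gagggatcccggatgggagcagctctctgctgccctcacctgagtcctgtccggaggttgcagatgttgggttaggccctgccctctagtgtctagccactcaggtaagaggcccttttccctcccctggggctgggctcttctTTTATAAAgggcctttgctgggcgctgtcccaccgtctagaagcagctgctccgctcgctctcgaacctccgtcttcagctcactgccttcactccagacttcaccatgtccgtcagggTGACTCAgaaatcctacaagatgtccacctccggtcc
Krt18: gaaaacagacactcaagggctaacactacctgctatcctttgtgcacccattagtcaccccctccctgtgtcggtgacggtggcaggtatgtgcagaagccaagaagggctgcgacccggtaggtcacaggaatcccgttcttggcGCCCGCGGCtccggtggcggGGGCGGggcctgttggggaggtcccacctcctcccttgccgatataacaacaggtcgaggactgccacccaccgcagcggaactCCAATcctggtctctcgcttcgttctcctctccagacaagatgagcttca
Krt5 held 1 GC box and 1 CCAAT box, and Krt18 held 1 of each and 1 AP-2 motif, with no TATAAA in either window. Krt8 held 2 overlapping TATAAA matches, 1 on each strand, and 1 AP-1 motif. The AP-1 motif of Krt8 and the CCAAT box of Krt18 lie in the 50 bases after the gene start, not before it. Of 33469 rat windows of the same length, 14.2% held TATAAA, 33.1% the GC box, 37.5% the CCAAT box, 4.63% the AP-1 motif and 15.1% the AP-2 motif. These matches describe letters in the windows only.

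The basal and stress keratins gave lower signals after irradiation, with mean intensities 20.9% to 26.3% lower in Krt5, Krt14, Krt15 and Krt17. Krt7, Krt8 and Krt19 of simple epithelia gave smaller differences that did not pass the test, and Krt18 was too dim to be tested. The keratins of cells that leave the basal layer also had lower means, Krt10 by 30.4% and Krt1, outside the list, by 24.0%. Neither passed. Krt10 was dim and its groups overlapped, so its percentage cannot be set closely against those of the bright keratins. Krt15 fell 1.36-fold and Krt17 fell 1.32-fold. Krt14 fell 1.30-fold with an adjusted p just under the threshold, and Krt5, lower by 1.26-fold, did not pass. Values are the deposited intensities, on a linear scale. Changes were tested with limma, a linear model fitted across all 18632 probe sets above an intensity filter, on log2(intensity + 16), with p-values adjusted over all of them by Benjamini-Hochberg and a threshold of 0.05.

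Of the 9 keratins with a probe set, 8 were above the filter, which lies at a mean intensity of 18.0. Krt19 (22.9) and Krt10 (24.7) were just above it and Krt18 (4.5) was under it and not tested. Of the 8 tested, 0 rose, 3 fell and 5 did not pass, and at an unadjusted p under 0.05 limma gave 0 higher and 4 lower, against 8.77% and 6.93% of all tested genes. Over all 10354 genes tested with 1 probe set each, 0.773% fell and 2% rose. In 4 of the 8, Krt5, Krt14, Krt15 and Krt17, all irradiated values lay under all unirradiated ones, against 10.1% of all tested genes with that order. The opposite order held for 0 of the 8 and for 11.8% of all tested genes. With quantile normalization 1 of the 8 fell, Krt15, against 0.666% of all tested genes. The median log2 change was -0.33 over the 9 measured keratins, 8 of which were below 0, and 0.0022 over all tested probe sets, where 50.2% of genes were below 0. In RNA from a whole culture, fewer cells of a type and less RNA per cell cannot be told apart.

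**Figure D1:**
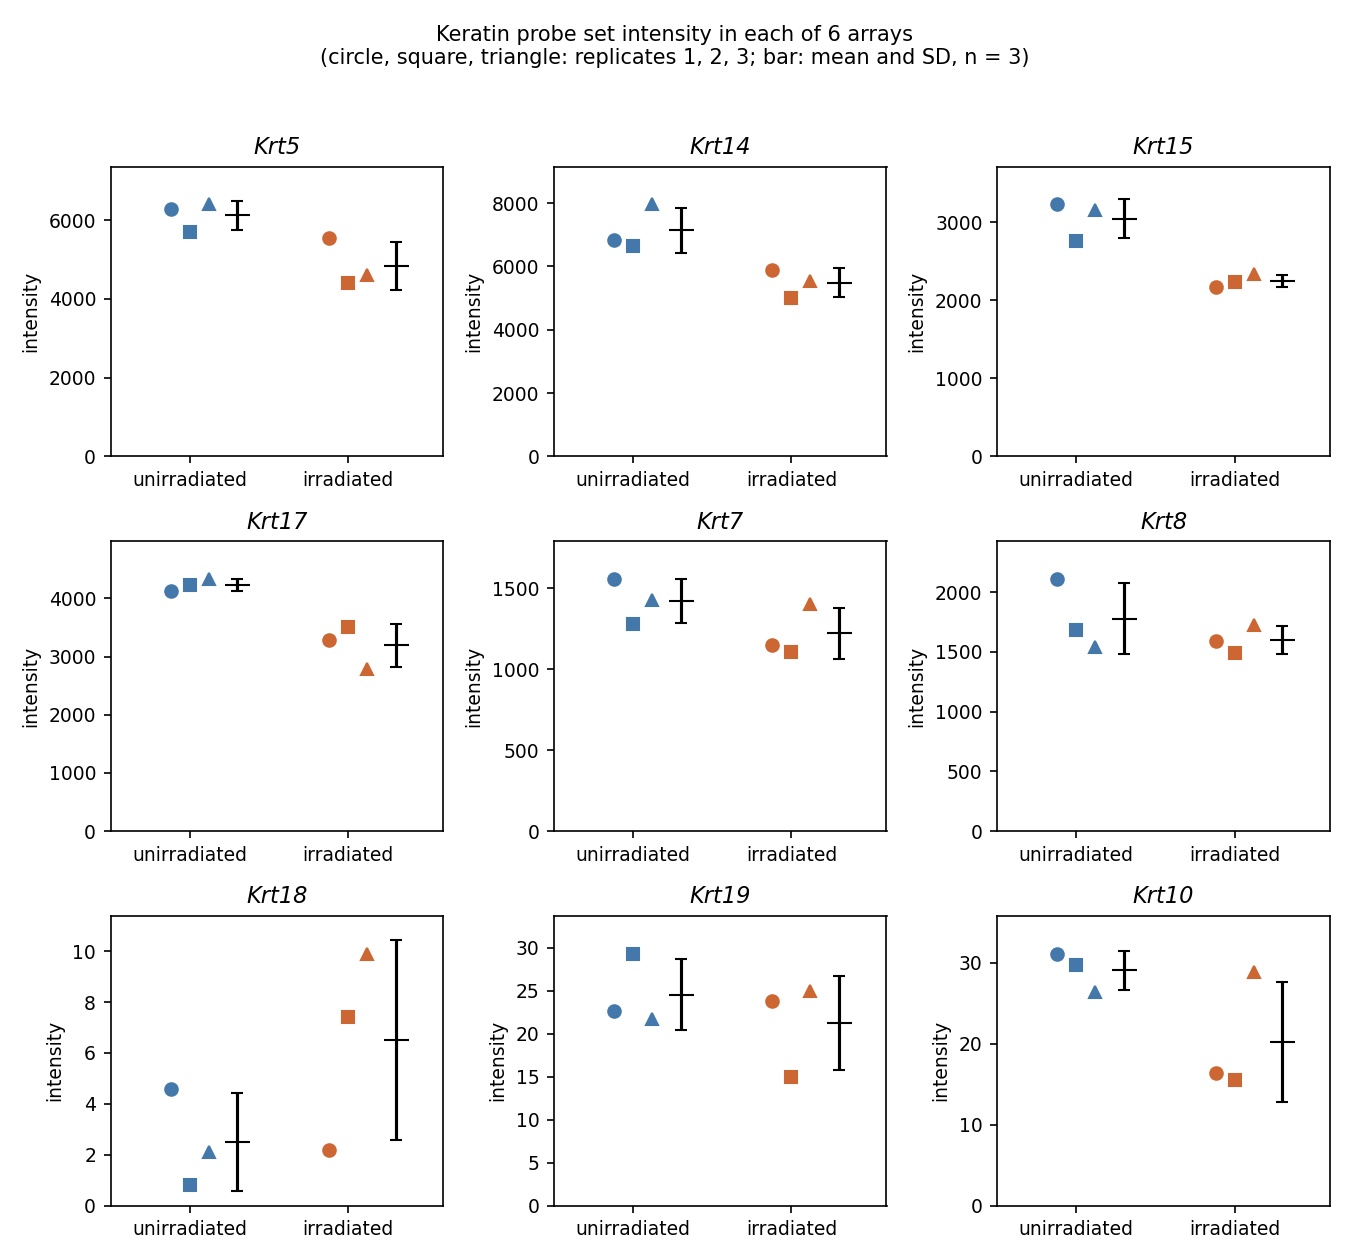
Intensity (linear scale, each vertical axis from 0 with its own range) of the 9 measured keratins in the 3 unirradiated (blue) and 3 irradiated (orange) arrays, with mean and SD beside the points. The groups are separate for Krt5, Krt14, Krt15 and Krt17 and overlap for the other 5, and Krt18 stays under an intensity of 10 on every array.

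Among the basal keratins, Krt15, a type I keratin of basal cells and of the hair follicle bulge, had the smallest adjusted p of the 8 tested. Its intensity was 3229, 2764 and 3153 in unirradiated replicates 1, 2 and 3 and 2173, 2234 and 2333 in irradiated replicates 1, 2 and 3. The irradiated arrays lay close together (2247 ± 80.8, mean ± SD, n = 3) and all under the unirradiated ones (3049 ± 249). Krt15 fell by 0.44 on the log2 scale (SE 0.08, 95% confidence interval from -0.61 to -0.26, limma adjusted p = 0.0121). With quantile normalization, which gives all arrays the same distribution of values, the log2 change of Krt15 was -0.34 (limma adjusted p = 0.0234). Its call ended without unirradiated replicate 1 (limma adjusted p = 0.0760), without irradiated replicate 1 (0.0534), without the intensity filter (0.0557) and without a trend in the variance (0.120).

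Krt14 is the type I partner of Krt5, and mutations in either gene cause epidermolysis bullosa simplex. Its intensity was 6832, 6632 and 7956 without irradiation and 5902, 5018 and 5555 with it, and the groups did not overlap. The means were 7140 ± 714 and 5492 ± 445 (SD, n = 3). Krt14 fell by 0.38 on the log2 scale (SE 0.09, limma adjusted p = 0.0497), which places it at the threshold. When the filter ranked probe sets by mean log2 value in place of mean intensity, the adjusted p of Krt14 by limma was 0.0502. Its call also ended in limma with quantile normalization (log2 change -0.24, adjusted p = 0.0562), with cyclic loess normalization (-0.25, 0.101) and without any 1 of the 6 arrays (adjusted p up to 0.161). It passed in 5 of 18 other settings, and its adjusted p in them ran from 0.0338 to 0.222.

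Krt5, the type II keratin of the basal pair, was at 6274, 5699 and 6397 without and 5540, 4401 and 4596 with irradiation. Irradiated replicate 1 lay closest to the unirradiated arrays, and the groups did not overlap as deposited. The log2 change was -0.34 (SE 0.09, 95% confidence interval from -0.54 to -0.14) and did not pass (limma adjusted p = 0.0875). Without irradiated replicate 1 it was -0.44 and passed (limma adjusted p = 0.0196). With quantile normalization it was -0.19 (limma adjusted p = 0.199), and irradiated replicate 1 then reached the lowest unirradiated value.

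Krt17, a type I keratin of hair follicles and of wounded or inflamed skin, had the tightest unirradiated values of the 9 on the log2 scale. They were 4136, 4224 and 4333, against 3287, 3515 and 2789 with irradiation. The irradiated values were the more scattered (3197 ± 371 against 4231 ± 98.7, mean ± SD, n = 3), with replicate 3 the lowest, and all lay under the unirradiated range. Krt17 fell by 0.41 on the log2 scale (SE 0.09, limma adjusted p = 0.0299). With quantile normalization its change was -0.27, the call ended (limma adjusted p = 0.199) and irradiated replicate 2 equalled the lowest unirradiated value, 3922. The call of Krt17 ended likewise with cyclic loess normalization (limma adjusted p = 0.123), without the intensity filter (0.124), without a trend (0.178) and when any 1 array other than irradiated replicate 2 was left out (up to 0.103).

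**Figure D2:**
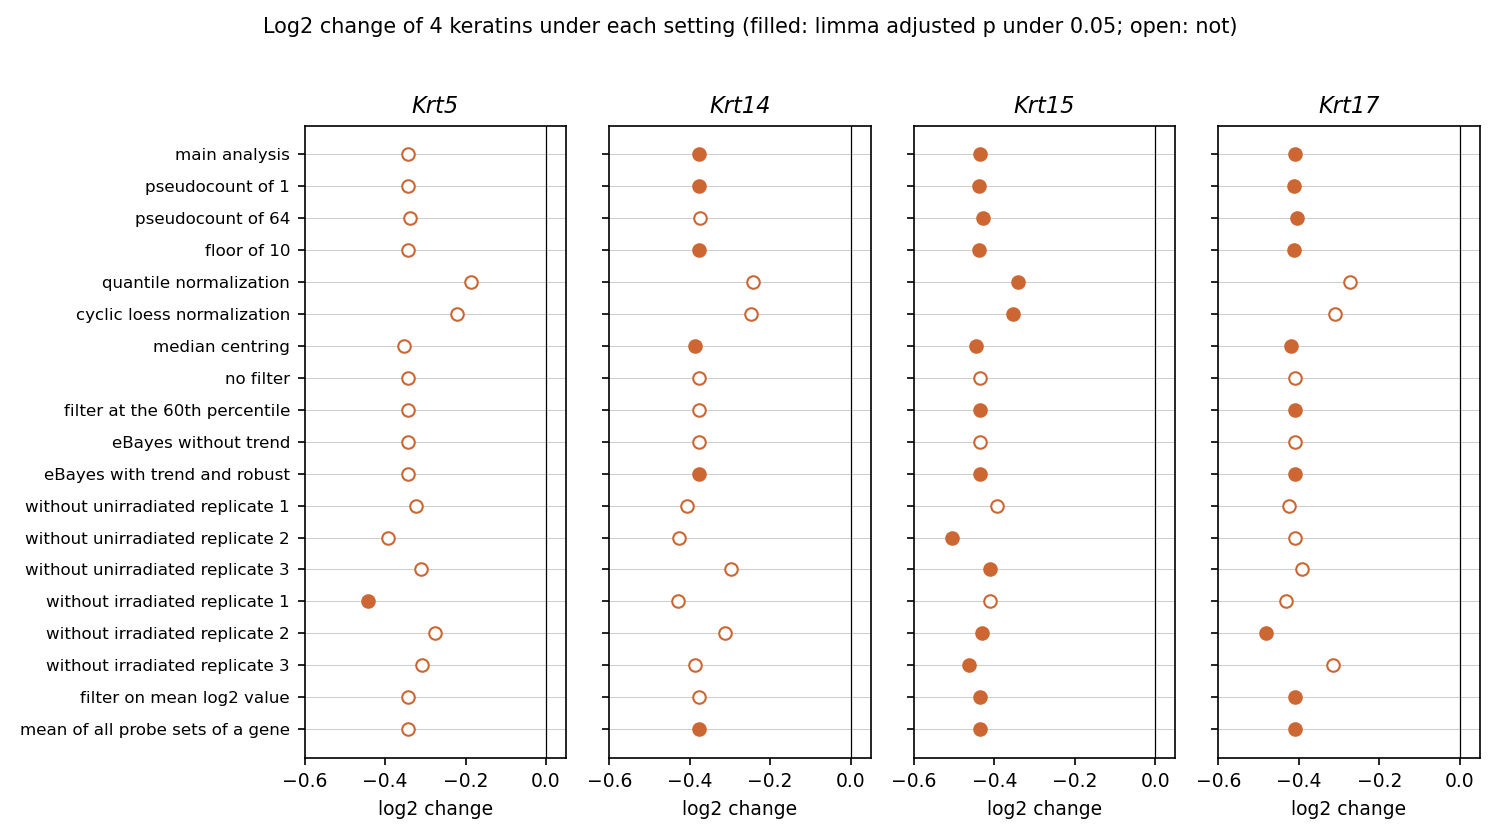
Log2 change, irradiated minus unirradiated, of Krt5, Krt14, Krt15 and Krt17 (horizontal axes) in the main analysis and 18 other settings (vertical axis), filled where limma's adjusted p was under 0.05. Points of these 4 genes lie below 0 in every setting drawn, and Krt15 is filled in 14 of the 18 other settings, Krt17 in 9, Krt14 in 5 and Krt5 in 1.

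No probe set carried the symbol Krt6a, the stress-induced type II partner of Krt17. The array annotation lists 3 probe sets for Krt6c, a type II gene of the same cluster, for which RefSeq records Krt6a as a synonym, and probes for such close copies may read either gene. The brightest of them, of a class that may detect related transcripts, was at 609, 449 and 810 without and 354, 418 and 403 with irradiation. The groups did not overlap, but the unirradiated values were scattered, and the log2 change of -0.61 (SE 0.16) did not pass (limma adjusted p = 0.0849). It passed without unirradiated replicate 2 (log2 change -0.82, limma adjusted p = 0.0076), while without unirradiated replicate 3 the change was -0.41 (0.182). A second Krt6c probe set was at 306, 244 and 314 without and 154, 168 and 405 with irradiation. There irradiated replicate 3 was the highest of all 6 arrays, so the groups overlapped (log2 change -0.35, limma adjusted p = 0.615). The third was dim, with a mean of 7.43.

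The simple-epithelium keratins Krt7 and Krt8, both type II, were also well measured. Krt7, a keratin of glands and ducts, was at 1556, 1281 and 1426 without and 1150, 1106 and 1403 with irradiation. Irradiated replicate 3 lay within the unirradiated range and the other irradiated arrays under it. The log2 change of Krt7 was -0.22 (95% confidence interval from -0.44 to 8.2e-04, limma adjusted p = 0.377). Krt8 was at 2110, 1682 and 1538 without and 1588, 1489 and 1724 with irradiation, and the groups overlapped widely. Its log2 change was -0.14 (95% confidence interval from -0.37 to 0.10, limma adjusted p = 0.640), and without unirradiated replicate 1, the highest array, it was -0.0098, and without unirradiated replicate 3, -0.24.

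Krt18, the usual type I partner of Krt8, gave almost no signal on its 1 probe set. Its intensities were 4.6, 0.8 and 2.1 without and 2.2, 7.4 and 9.9 with irradiation, all under the filter at 18.0, and no fold is given for such values. Low signal on 1 probe set does not show that the mRNA was absent, and no second probe set was there to compare. Krt19, a type I keratin that can also pair with Krt8 and Krt7, was dim at 22.6, 29.3 and 21.7 without and 23.8, 15.0 and 25.0 with irradiation. The groups overlapped and the log2 change of Krt19 was -0.13 (95% confidence interval from -0.52 to 0.27, limma adjusted p = 0.831). Leaving out irradiated replicate 2 gave a change of -2.9e-05 for Krt19, and leaving out unirradiated replicate 2 gave -0.04. Krt18 and Krt19, the type I partners of Krt7 and Krt8, thus had intensities at or under 29.3 on every array, although intensities of different probe sets are not on 1 scale.

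Krt10, the type I keratin of cells that have left the basal layer, was dim as well. It was at 31.1, 29.7 and 26.4 without and 16.4, 15.5 and 28.8 with irradiation. Irradiated replicates 1 and 2 lay under all unirradiated arrays and replicate 3 among them. The log2 change was -0.33 (95% confidence interval from -0.74 to 0.07) and did not pass (limma adjusted p = 0.485). Its partner Krt1 was at 91.6, 103.5 and 79.9 without and 79.1, 55.5 and 74.3 with irradiation, with a log2 change of -0.34 (limma adjusted p = 0.363).

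Which irradiated array was lowest differed from keratin to keratin. It was replicate 2 for Krt5, Krt14, Krt7, Krt8, Krt19 and Krt10, replicate 1 for Krt15 and replicate 3 for Krt17. Ratios within an array were taken for type I genes against Krt5, as the change of the log2 ratio from its unirradiated mean and without a test. The Krt14 to Krt5 ratio was at -0.13, -0.03 and 0.05 in irradiated replicates 1, 2 and 3 and at -0.10, -3.7e-05 and 0.10 in the unirradiated ones, with only irradiated replicate 1 outside the unirradiated range. The Krt15 to Krt5 ratio was at -0.34 in irradiated replicate 1 and at 0.03 in each of the other 2. In unirradiated replicates 1, 2 and 3 it was at 0.05, -0.04 and -0.01. The Krt17 to Krt5 ratio was at -0.22, 0.21 and -0.19 in irradiated replicates 1, 2 and 3 and at -0.07, 0.10 and -0.03 in the unirradiated ones. All its irradiated values thus lay outside the unirradiated range, on both sides of it. In none of the 3 ratios did all irradiated values lie on 1 side of the unirradiated ones. Krt17 was set against Krt5 because Krt6a had no probe set.

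**Figure D3:**
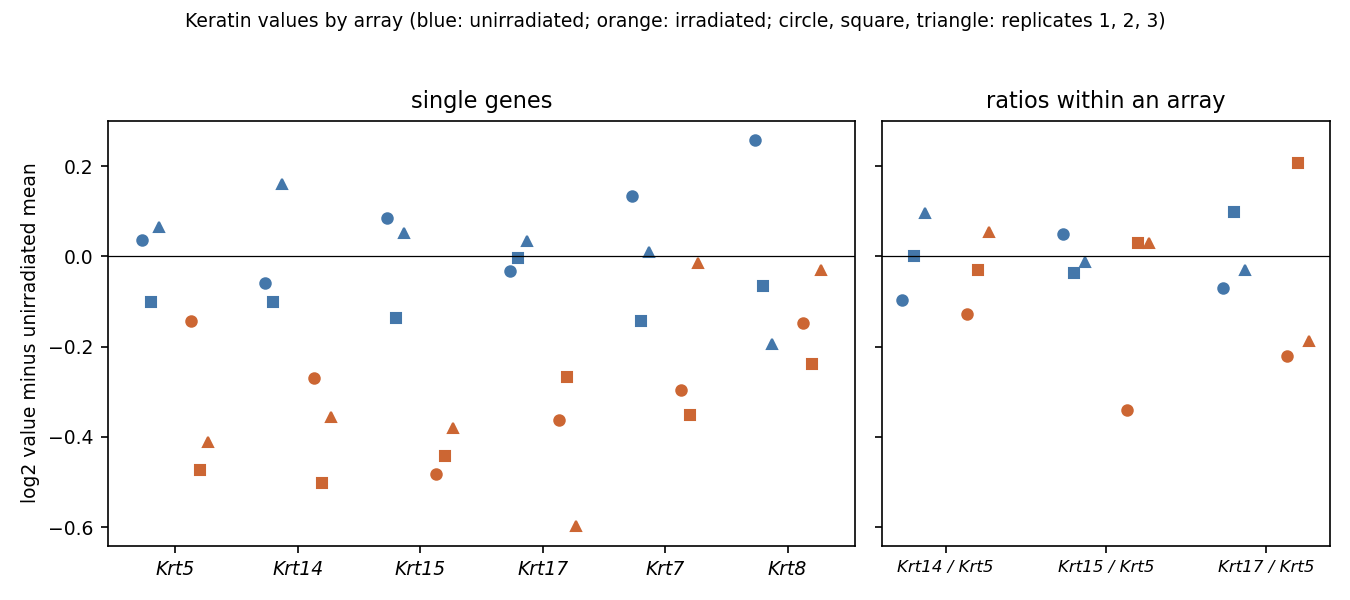
Log2 value of 6 keratins (left) and of 3 ratios to Krt5 within an array (right), each minus its unirradiated mean, by array. Orange irradiated points lie under blue unirradiated ones for Krt5, Krt14, Krt15 and Krt17, while the groups overlap for all 3 ratios.

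Bright probe sets as a class were slightly lower on the irradiated arrays. The 99th percentile of intensity had a mean of 2694 in the unirradiated and 2536 in the irradiated arrays. Each tested keratin was therefore set beside the 200 other tested probe sets nearest to it in mean log2 intensity, as a description. Around Krt15 their median log2 change was -0.10, with 10th and 90th percentiles of -0.22 and 0.03, both above the -0.44 of Krt15. Around Krt17 the median was -0.12 and the 10th percentile -0.25. Around Krt14 and Krt5, which shared nearly all neighbours, the median was -0.13 and the 10th percentile -0.22. The difference between keratin and neighbour median was -0.34 for Krt15, -0.29 for Krt17, -0.25 for Krt14 and -0.21 for Krt5. After quantile normalization these differences were -0.34, -0.27, -0.25 and -0.19, since the neighbour medians then lay near 0. Krt7 (-0.22) was just under the 10th percentile of its neighbours (-0.21) and Krt10 (-0.33) under its own (-0.29), while Krt8 and Krt19 lay inside the range. The same held after quantile normalization, with Krt7 at -0.19 against -0.18 and Krt10 at -0.34 against -0.28.

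**Figure D4:**
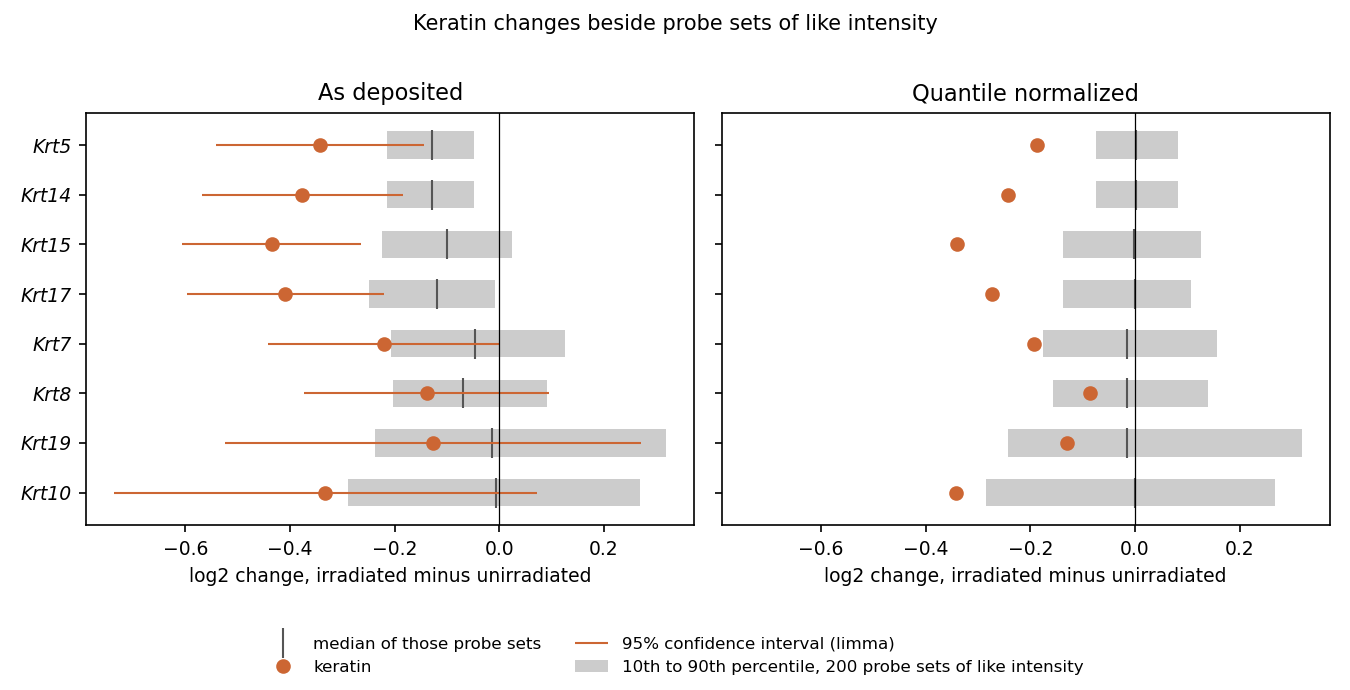
Log2 change of the 8 tested keratins (orange, with limma's 95% confidence interval on the left) beside the median (tick) and the 10th to 90th percentiles (grey) of 200 probe sets of like intensity, as deposited (left) and quantile normalized (right). Krt5, Krt14, Krt15 and Krt17 lie to the left of the grey bars in both panels, and so, by less, do Krt7 and Krt10.

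Other keratins added few measured genes. Besides Krt6c, 15 keratins outside the list had a probe set with 1 symbol, and of these only Krt1, Krt71, Krt33b and Krt86 were above the filter. Limma called 0 of the 6 tested probe sets of these 5 genes in either direction, and 0 were higher and 3 lower at an unadjusted p under 0.05, against 7.41% and 5.91% of all tested probe sets. Krt71, a type II keratin of the inner root sheath of hair, was at 42.1, 41.9 and 69.9 without and 36.4, 36.0 and 16.4 with irradiation (log2 change -0.57, limma adjusted p = 0.278). The hair keratins Krt33b (0.11) and Krt86 (-0.19) overlapped between the groups on the log2 scale. The other 11, among them Krt4 and Krt13 of the lining of mouth and oesophagus and Krt20 of gut and Merkel cells, had mean intensities from 2.6 to 15.7. The 2 probe sets that name several hair keratins overlapped between the groups.

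Transcription factors known to act on keratin genes were then examined. Of 26 tested, 0 rose, 1 fell and 25 did not pass, and at an unadjusted p under 0.05 1 was higher and 3 were lower, against 8.77% and 6.93% of all tested genes. The member that fell was Tp63, the master regulator of the basal state, whose protein acts on the Krt5 and Krt14 genes. It was at 1215, 1323 and 1458 without and 993, 773 and 827 with irradiation, without overlap (log2 change -0.62, limma adjusted p = 0.0063). On a dimmer Tp63 probe set the groups overlapped (log2 change -0.46, limma adjusted p = 0.247). The call of Tp63 ended without a trend in the variance (limma adjusted p = 0.0798). Klf4, of the suprabasal layers, and the AP-1 gene Junb had log2 changes of -0.31 and -0.38 and did not pass.

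Proteins that bind or modify keratin filaments gave few changes. Of 14 tested linkers that anchor filaments to junctions, such as plectin and desmoplakin, limma called 0 in either direction, with 2 higher and 1 lower at an unadjusted p under 0.05 (8.77% and 6.93% of all tested genes) and a median log2 change of 0.01. Eppk1 (0.34), Pkp1 (-0.24) and Evpl (0.32) had the smallest p among them, and with quantile normalization their log2 changes were 0.31, -0.14 and 0.29. Of 14 tested kinases, chaperones and adaptors that act on keratins, 0 rose and 1 fell, against 2% and 0.773% of all tested genes. Limma gave 0 of them higher and 2 lower at an unadjusted p under 0.05, against 8.77% and 6.93% of all tested genes. The 1 that fell was Sfn, whose product 14-3-3 sigma binds phosphorylated keratins. Sfn went from 1415 ± 183 to 1026 ± 56.3 (log2 change -0.45, limma adjusted p = 0.0338), and the call ended without the filter, without a trend or when any 1 array other than unirradiated replicate 2 was left out (limma adjusted p up to 0.169). Hspb1, a small heat shock protein that associates with keratin filaments, had a log2 change of -0.26 and the co-chaperone gene Dnajb6 one of -0.18. Neither passed, and with quantile normalization the changes were -0.16 and -0.17.

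Intermediate filament genes other than keratins held a pair that rose. Of 10 tested, 2 rose, 0 fell and 8 did not pass, while 2% of all tested genes rose and 0.773% fell. At an unadjusted p under 0.05 limma gave 4 higher and 0 lower, against 8.77% and 6.93% of all tested genes. Of the 10, 2 were below 0, against 50.2% of all tested genes, and the median log2 change was 0.21. The other 6 genes named on the array were under the filter. Nefh, the heavy neurofilament subunit, rose from 62.6 ± 7.97 to 131 ± 15.5 (log2 change 0.90, limma adjusted p = 0.0040). Lmnb2, a B-type lamin of the nuclear envelope, rose from 214 ± 15.4 to 312 ± 13.99 (0.51, limma adjusted p = 0.0156), and its call ended without unirradiated replicate 2, without irradiated replicate 1 or 2 and without a trend (limma adjusted p up to 0.0812). The brightest probe sets of Lmnb1 and Lmna, genes of other lamins, had log2 changes of 0.36 and 0.29 and did not pass. A second Lmnb1 probe set rose, from 183 ± 8.53 to 276 ± 20.6 (0.55, limma adjusted p = 0.0125), a call that ended without unirradiated replicate 1 (0.0648), irradiated replicate 1 (0.0689) or irradiated replicate 2 (0.0721) and under eBayes without a trend (0.0541). The dimmest Lmnb1 probe set (0.42, limma adjusted p = 0.321) did not pass. Vim, the vimentin gene of mesenchymal cells, was at 73.8 ± 26.3 without and 74.8 ± 7.63 with irradiation.

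The keratinocyte label was checked against genes other than keratins. All 20 listed keratinocyte genes named on the array were above the filter, among them Pkp1, Perp, Cdh1 and Itgb4. The list is not limited to genes particular to basal cells. The summed intensity of the 20 was 20240 to 23288 without and 18820 to 20844 with irradiation. Of these 20, 0 rose, 2 fell (Tp63 and Sfn, which other lists hold too) and 16 were below 0, with a median log2 change of -0.08. Over all tested genes 2% rose, 0.773% fell and 50.2% were below 0. Limma gave 0 of the 20 higher and 4 lower at an unadjusted p under 0.05, against 8.77% and 6.93% of all tested genes. The 4 were Tp63, Sfn, Col17a1 (log2 change -0.31) and Pkp1 (-0.24), of which Col17a1 and Pkp1 did not pass. Bright probe sets were lower as a class, with medians of -0.05 and -0.07 in the 200 nearest in intensity to Krt7 and to Krt8. Some of the 20 genes were much dimmer, down to a mean of 37.0 for Bnc1. They were not set beside probe sets of like intensity, so the part of brightness in their changes was not tested. Of 13 tested non-keratin genes of differentiated layers, 0 rose, 1 fell and 10 were below 0, against the same shares of all tested genes. Their median log2 change was -0.26. Limma gave 0 of the 13 higher and 3 lower at an unadjusted p under 0.05, against 8.77% and 6.93% of all tested genes. The member that fell was Calml5, a calmodulin-like skin protein gene, from 694 ± 21.3 to 409 ± 26.9 (log2 change -0.74, limma adjusted p = 4.9e-04).

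Markers of other cell types were mostly dim. Of 38 named markers of fibroblasts, melanocytes, immune, endothelial and Merkel cells, 30 were under the filter. Of the 8 above it, 0 rose and 1 fell, against 2% and 0.773% of all tested genes. At an unadjusted p under 0.05 limma gave 1 higher and 2 lower, against 8.77% and 6.93% of all tested genes. The summed fibroblast markers ran from 514 to 573 without and from 462 to 483 with irradiation, of which Col3a1 made up most, while Pdgfra, Dcn and Lum were under the filter. Col3a1, a fibrillar collagen gene, was the marker that fell, while Col1a1 and Fbln1, the other tested fibroblast markers, had log2 changes of 0.65 and 0.25 on their brightest probe sets and did not pass. Col1a1 went from 17.3 ± 3.53 to 36.1 ± 4.20 with no overlap (limma adjusted p = 0.0826). Its unirradiated mean was under the filter at 18.0, so it was tested only through its higher irradiated values. A second Col1a1 probe set had a log2 change of -0.39 (limma adjusted p = 0.462). The change of Col3a1 (log2 change -0.46, limma adjusted p = 0.0271) was a call that ended without the filter, without a trend or when any 1 array other than unirradiated replicate 2 was left out (adjusted p up to 0.150). The summed melanocyte markers were 90.6 to 109.7 and 63.9 to 87.3, and only Mitf and Pmel were above the filter. Mitf went from 37.5 ± 5.91 to 16.8 ± 3.80, under the filter, with no overlap (log2 change -0.71, limma adjusted p = 0.0637). A second Mitf probe set had a log2 change of 0.14 (limma adjusted p = 0.783), and Pmel one of -0.10 (0.869). Mlana, Sox10 and Kit had means of 1.07, 3.45 and 5.23. The summed immune markers were 73.5 to 84.6 and 65.7 to 92.3, the endothelial 43.2 to 77.8 and 65.5 to 68.3 and the Merkel cell markers 99 to 142.0 and 83.3 to 146.5. The part of these cell types in the keratin values was not tested. Genes of simple and glandular epithelium summed to 2780 to 2950 and 2872 to 3001, Epcam being the brightest. Limma called 0 of 7 tested. At an unadjusted p under 0.05 there were 1 higher and 0 lower, against 8.77% and 6.93% of all tested genes.

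The genes whose values over the 6 arrays lay closest to those of a keratin were found by the root mean square difference of log2 values, each centred on its own mean, among 10353 other genes. Krt15 was closest to Col3a1 (0.05), Iffo2 (0.06) and C13h2orf76 (0.06). For Krt14 the closest were Slc25a5 (0.04), Qsox2 (0.04) and Timm10b (0.04), and for Krt17 they were Dcaf4 (0.04), Elovl6 (0.04) and LOC100912167 (0.04). The measure is a description over 6 arrays in which each of these genes was lower after irradiation.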

How the data were processed

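The 6 samples of the line, grouped by their source descriptions, gave 1 array each. Trizol extraction and biotin labelling of polyA RNA are stated per the labels' protocols, and BRB ArrayTools 3.3.0 per the series design text. How probe set values were made is not stated in these sources. The authors deposited intensities on a linear scale. Their means after trimming 2% at each end were 150.04 to 150.05, so they were kept as deposited.

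Of 31099 probe sets, 57 controls were left out, as were those with a mean intensity under the 40th percentile. Log2(intensity + 16), which understates the change of dim genes, was fitted with limma 3.58.1 in R 4.3.3 (eBayes with trend, two-sided, no covariate). Folds are ratios of mean intensities. The procedure was tested on simulated data. Precision is limited by the number of arrays: the median SE was 0.14 on the log2 scale. Correlations between arrays were 0.983 to 0.988.

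Gene names came from the platform annotation. RefSeq names and neighbours are of GRCr8, and all 10 keratins were found there. The members, the 12 gene lists and the tests were chosen with earlier results of these data known. Named were all members, other keratins above the filter, list genes that passed or had the smallest p, and the 3 genes most like Krt14 and each keratin that fell. Other genes named at their intensities as markers were picked after their values were seen. A Krt17 to Krt6a ratio was planned and could not be formed. The ratios of Krt18 and Krt19 to Krt8 are not given because their type I probe sets were dim.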

Additional observations from a re-analysis of the deposited data

How the results depend on the processing

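The number of keratins that fell (3) was 1 with quantile normalization, 1 with cyclic loess normalization, 0 without a filter and 0 without a trend in the variance. It ran from 0 to 2 when 1 array was left out, where fewer arrays give less power: 0 without unirradiated replicate 1, 2 without irradiated replicate 2 and 1 without any other array. In both settings with all arrays and a count of 0, limma gave 4 lower at an unadjusted p under 0.05. The number that rose was 0 in all 18 settings. The median log2 change of the measured keratins lay between -0.34 and -0.19 in the 18 settings, and the values of the 8 tested keratins were below 0 in each setting that tested them, though that of Krt19 was -2.9e-05 without irradiated replicate 2 and that of Krt8 -0.0098 without unirradiated replicate 1. A filter on mean log2 value was added after seeing the data. No paired analysis was possible because the labels give the groups no shared replicate numbers. A dim probe set such as Krt10 had a log2 change from -0.58 to -0.15 over the settings.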
